A study of Drosophila melanogaster with 4 samples.

Results

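H3K9me1 domains along 3L, the left arm of chromosome 3 of Drosophila melanogaster, are described here as they were called by chromatin immunoprecipitation and sequencing (ChIP-seq). The members are the enriched regions, called domains below, of the combined list of both replicates that lie on 3L, measure under 10 kb and have their midpoint at least 2 Mb short of the proximal end of the arm, which lies at position 24543557 on FlyBase release 5. The 2 Mb next to the centromere are thus left out, and positions count from the distal tip. The rule took 2562 domains, of 13702 in the whole combined list, of 2791 on 3L and of 2730 in the chosen stretch. The other 168 domains of the stretch measure 10 kb or more and were left out by length, and 61 lie beyond the position limit. The series holds 2 ChIP replicates made with an antibody against H3K9me1 (new lot 2) and 2 input replicates of chromatin that was not precipitated. All 4 samples are nuclei of larvae of the third instar of the wild-type strain Oregon-R, with no treatment and no mutant, so the design holds no contrast between conditions. Members were chosen by their call as enriched, their length and their position in the combined list. These values are therefore a description, and no test was made on them.

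Histone H3 can carry methyl groups at lysine 9, and H3K9me1 is the form with a single one. Di- and trimethylated lysine 9 are bound by heterochromatin protein HP1 and are best known from the heterochromatin around centromeres and on chromosome 4. The monomethylated form is the substrate from which those states can be made, and it is also found in euchromatin. The arm 3L is largely euchromatic over the stretch described. Larvae hold many tissues, and a domain is a sum over them, so fewer cells with the mark and less mark per cell cannot be told apart.

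Each replicate was called against its own input, and the sources used here do not give read depth. Replicate 1 listed 1750 domains of any length in the stretch and covered 36.5% of its 22.5 Mb. Replicate 2 listed 2275 domains and covered 30.3%, which gives 33.4% ± 4.39 (SD, n = 2). The members alone covered 31.5% and all 2730 combined domains 45.5%. The labels do not tell separate larval collections from repeat libraries, so this spread may be technical. The lists differ in how the marked bases are cut up. Domains of 10 kb or more held 42.0% of the covered bases of replicate 1, in 174 domains, and 9.00% of those of replicate 2, in 45 domains.

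Members measured 1001 to 9996 bp, with a median of 2055.5 bp and quartiles of 1390 and 3442 bp. The longest member just inside the length limit runs from 16961912 to 16971907 (9996 bp, authors' score 0.98). The shortest domain just outside it runs from 15966637 to 15976753 (10117 bp, score 0.40). There were 34 members of 9 kb or more and 25 domains from 10 to 11 kb, so the limit cuts through a continuous range of lengths. At the position limit the last member runs from 22511623 to 22512789, and the first domain left out from 22543210 to 22545240. The authors' score has no stated scale and is used only to describe and rank domains within a list.

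Coverage rose and sank along the arm from window to window, and the densest stretch lay near the distal tip. In the first 1 Mb, 60.4% of the bases were covered in replicate 1 and 51.6% in replicate 2, or 56.0% ± 6.21 (SD, n = 2). In the rest of the stretch it was 35.4% in replicate 1 and 29.3% in replicate 2, or 32.3% ± 4.31 (SD, n = 2). Both replicates were thus denser in the first 1 Mb than either was in the rest. The members do not show this density. In number they were fewer there, and they covered 25.2% of the first 1 Mb and 31.8% of the rest, with 80 members per Mb against 115. Domains of 10 kb or more filled the difference, with 39.2% of the first 1 Mb against 12.8% of the rest. Over the first 1 Mb as a whole, the dense distal end is therefore one of long domains in the combined list. The replicates cut it up differently. The longest domain there measured 57432 bp in replicate 1, which had 76 domains, and 25394 bp in replicate 2, which had 106. In the first 0.5 Mb combined domains of 10 kb or more covered 17.7%, against 13.9% of the rest. That window ranked 11 of 45 with all lengths counted. For members alone the order depends on the extent of the distal end. They covered 36.2% of the first 0.5 Mb and 33.8% of the first 2 Mb, against 31.4% and 31.3% of the rest.

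The distal long domains of the combined list stand close together. There were 17 in the first 1 Mb, and 11 of them have their midpoints between 0.5 and 1 Mb. The longest pair runs from 712343 to 769691 (57.3 kb) and from 770077 to 826866 (56.8 kb). Only 26 members have their midpoints in that window, which had 69.8% covered in replicate 1 and 63.3% in replicate 2, the highest of the 45 full windows of 500 kb in each. By members alone the same window ranked 43 of 45, at 14.2%. Members of the first 1 Mb had a median length of 2387 bp and a median score of 0.41, against 2043 bp and 0.36 in the rest. Of these 80, 38 (47.5%) overlapped domains of both replicates, against 35.4% of all members and 33.9% of all combined domains under 10 kb. Similar shares occurred far from the tip, such as 50.7% in the window from 16.5 to 17 Mb.

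**Figure D1:**
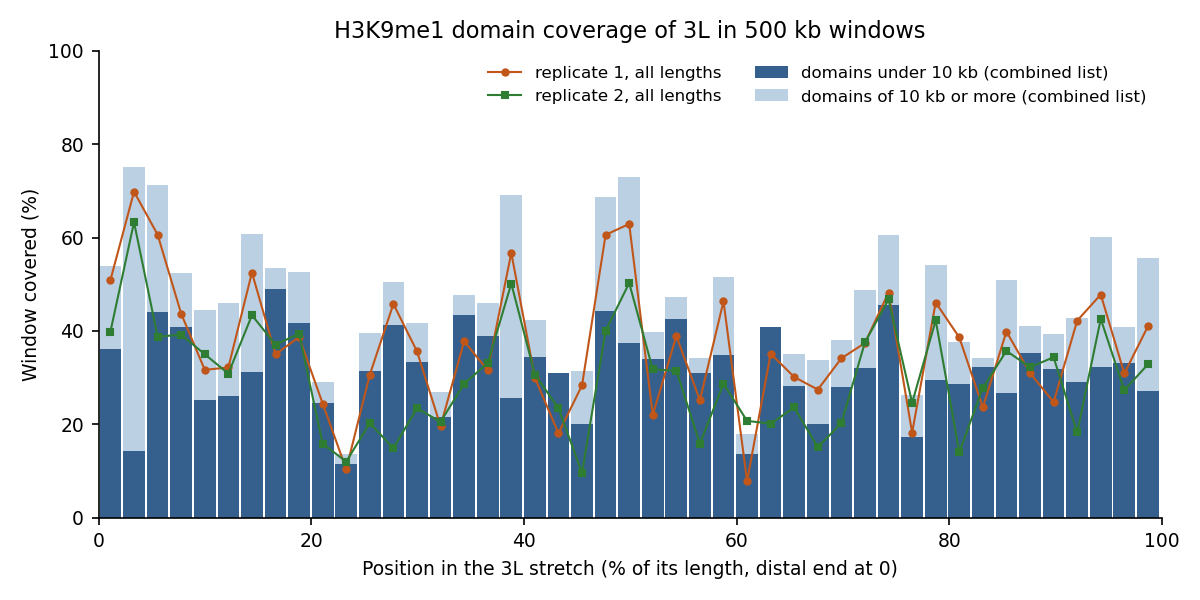
Covered share (percent) of the 45 full windows of 500 kb, by position in the stretch as a percentage of its length. Dark bars are combined domains under 10 kb, pale bars those of 10 kb or more stacked on them, and lines are each replicate with all lengths. The second window reaches 69.8% in replicate 1 and 63.3% in replicate 2 with only 14.2% in domains under 10 kb, and the window at 23.3% of the stretch is low in all lists.

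Over the 45 full windows, members covered 11.6% to 48.9%, with a median of 31.9%, and numbered 19 to 90. The windows with the highest coverage by members were 3.5 to 4 Mb, 16.5 to 17 Mb and 10.5 to 11 Mb. From 3.5 to 4 Mb, 90 members covered 48.9%, and replicate 1 and replicate 2 covered 35.0% and 37.1%. From 16.5 to 17 Mb, 67 members covered 45.6%, with 48.2% in replicate 1 and 46.8% in replicate 2. In both windows the replicates differed by little in covered share, which does not mean that they marked the same places. From 3.5 to 4 Mb, 28 of 90 members overlapped domains of both replicates, 21 replicate 1 alone and 31 replicate 2 alone. From 16.5 to 17 Mb, 34 of 67 overlapped both, 9 replicate 1 alone and 16 replicate 2 alone. From 10.5 to 11 Mb, 65 members covered 44.2%, and the replicates differed more, at 60.6% and 40.0%. With all lengths counted, the densest windows after the distal one were 11 to 11.5 Mb (73.0% in the combined list, 62.9% and 50.3% in the replicates), 1 to 1.5 Mb (71.3%, with 60.6% and 38.8%) and 8.5 to 9 Mb (69.1%, with 56.7% and 50.2%). Over 50% was covered in both replicates in 3 windows.

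The lowest windows by members were 5 to 5.5 Mb, 13.5 to 14 Mb and the long-domain window at 0.5 to 1 Mb. From 5 to 5.5 Mb, 19 members covered 11.6%, and replicate 1 covered 10.4% and replicate 2 12.0%, so all lists were low. It was the only full window under 20% in both replicates. From 13.5 to 14 Mb, 35 members covered 13.7%, with 7.85% in replicate 1 and 20.8% in replicate 2. In that window replicate 2 was higher by 12.9 points, the widest excess of replicate 2. In blocks of 5 Mb the members varied far less, from 29.5% at 15 to 20 Mb to 33.3% in the first 5 Mb. Their median length was 2333.5 bp in the first block and 1918 to 2045.5 bp in the others. Median scores of the blocks lay between 0.35 and 0.38, with the highest in the first.

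Replicate support was counted as an overlap of 1 bp or more with a domain of each replicate. Of the 2562 members, 908 (35.4%) overlapped domains of both replicates. Over the whole combined list this share was 37.8%, and among its domains under 10 kb it was 33.9%, so the members lie near the background. A further 699 members (27.3%) overlapped replicate 1 alone, against 22.5% of all combined domains under 10 kb, and 627 (24.5%) replicate 2 alone, against 30.6%. The remaining 328 (12.8%) overlapped neither, against 13.1%. The background takes in X, where domains chosen as on 3L overlapped replicate 1 alone in 11.5% and replicate 2 alone in 42.5%. On 2L these shares were 26.9% and 25.6%, and on 3R 25.8% and 25.8%, near those of 3L. Members found in both made up 54.9% of the member bases, while replicate 1 covered 67.2% of all member bases and replicate 2 56.3%. The combined list rests on the same samples, so these counts are no independent evidence for a domain.

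Support went with length. Members found in both had a median length of 3755.5 bp, those of replicate 1 alone 1815 bp, those of replicate 2 alone 1714 bp and those of neither 1184 bp. Of the 332 members of 5000 bp or more, 289 (87.0%) were found in both and none in neither. Among the 982 members from 2000 to 4999 bp, 529 (53.9%) were found in both, and among the 729 from 1301 to 1999 bp 86 (11.8%). Members of 1001 to 1300 bp numbered 519, and 4 of them were found in both while 239 (46.1%) were in neither. The shortest domain of either replicate measures 1301 bp, so a combined domain under that length has no counterpart of its own size. A longer domain also meets another at 1 bp more easily.

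**Figure D2:**
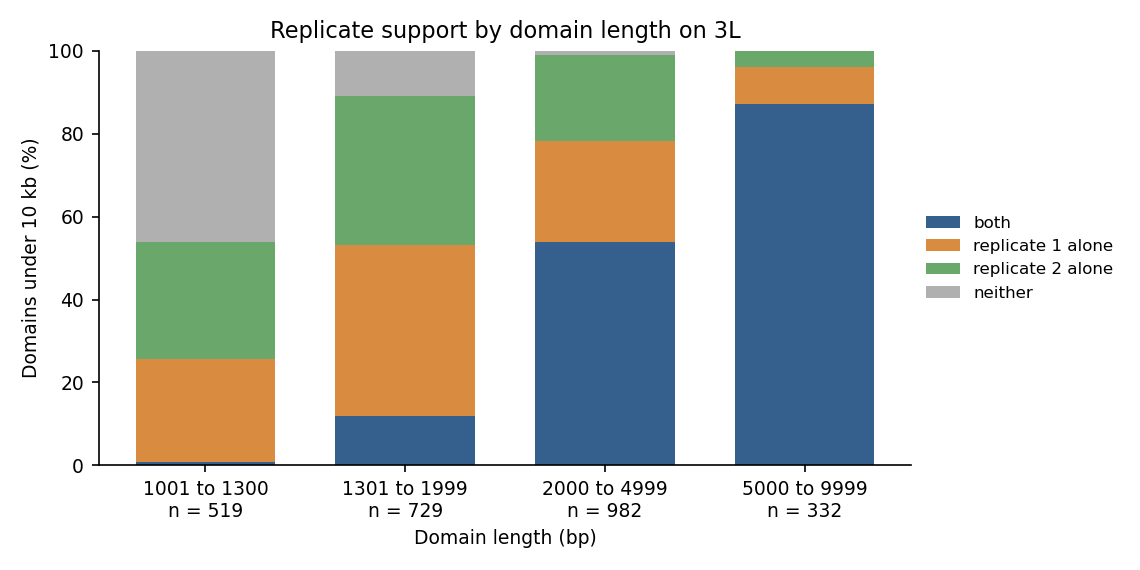
Share (percent) of the domains under 10 kb on 3L that overlap a domain of both replicates, of replicate 1 alone, of replicate 2 alone or of neither, in 4 classes of length in bp. The share found in both is 0.77% in the shortest class and 87.0% in the longest.

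Score was higher in longer and in better supported members, except among the shortest. The median score was 0.50 for members found in both, and 0.33 for replicate 1 alone, for replicate 2 alone and for neither. Above the upper quartile of scores 519 of 641 members (81.0%) were found in both, and below the lower quartile 78 of 641 (12.2%). Median lengths were 4439 bp above the upper quartile and 1509 bp below the lower. Over the members, length and score had a Spearman rho of 0.61 (n = 2562), a description, since both come from the same calls. Within the class of 2000 to 4999 bp the median score was 0.48 for 529 members found in both, 0.38 for 239 of replicate 1 alone and 0.39 for 204 of replicate 2 alone. From 1301 to 1999 bp the medians of the 4 support classes ran from 0.28 to 0.30, so the support classes had near-equal scores there. From 1001 to 1300 bp the order turned, with a median of 0.21 for the 4 members found in both and 0.33 for the 239 in neither. The median score of all members of that class, 0.33, was above the 0.28 of the class from 1301 to 1999 bp.

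**Figure D3:**
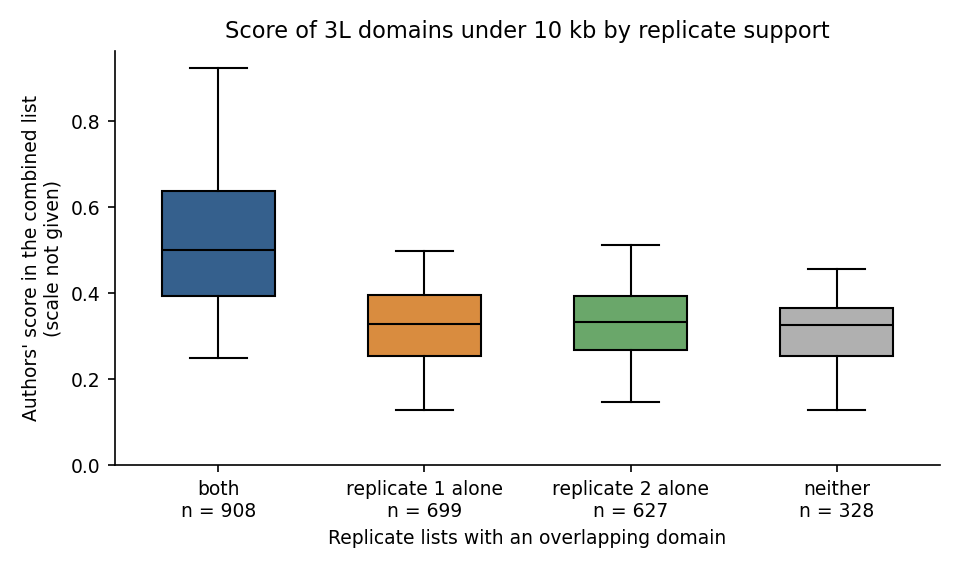
Authors' score in the combined list, on a scale that is not given, for 3L domains under 10 kb by replicate support. Boxes show the quartiles and median, and whiskers the 5th and 95th percentiles. Domains found in both replicates have a median of 0.50, and the other classes lie at 0.33.

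The highest-scoring member ran from 18796148 to 18803397 (7250 bp, score 1.46). A single domain of replicate 1 held 99.9% of it and a single domain of replicate 2 held 97.1%, and these ranked 26 of 1776 and 4 of 2342 by score on the arm. The second ran from 6782848 to 6786876 (4029 bp, score 1.36). It was the least even of the top 5, with 100% of its length in replicate 1 but 52.9% in replicate 2, where its domain ranked 770. Next came the member from 17554033 to 17563715 (9683 bp, score 1.34), which lay to 97.4% in replicate 1 and to 79.7% in 2 domains of replicate 2. The others of the top 5 ran from 3778788 to 3787021 and from 10673057 to 10682340, with scores of 1.33 and 1.29 and at least 89.1% of their length in each replicate. All 5 were found in both replicates. They lie far apart along the stretch, at 16.8%, 30.1%, 47.4%, 77.9% and 83.4% of its length.

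Length and rank parted among the 5 longest members, which measured 9920 to 9996 bp. The longest, given above for the length limit, ranked 33 by score among the members, with 94.8% of its length in replicate 1 and 91.2% in replicate 2. The one from 10926021 to 10936005 (9985 bp) ranked 779, with a score of 0.44. It lay wholly in a domain of replicate 1 and to 14.0% in one of replicate 2. The others lay at 164461 to 174412, 1512701 to 1522620 and 3302957 to 3312949, at 0.75%, 6.73% and 14.7% of the stretch, and had at least 73.9% of their length in each replicate.

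High scores also occurred without support from a replicate list. The member from 3601194 to 3602264 (1071 bp) had a score of 0.96 and ranked 38 of 2562, yet no domain of either replicate touched it. The next was the member from 2063393 to 2064425 (1033 bp), with a score of 0.85 and rank 81. The other members among the 5 highest of this kind measured 1032 to 1153 bp and scored 0.53 to 0.60. All 5 are shorter than any domain of the replicate lists. Of the 328 members in neither replicate, 239 (72.9%) measured under 1301 bp. The lowest score of all, 0.0046, belonged to a member of 1329 bp from 11176335 to 11177663, which was in neither replicate.

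Which replicate supported the members changed along the arm. Members found in both were the most numerous class in 24 of the 45 windows, those of replicate 1 alone in 12 and those of replicate 2 alone in 8, with a tie in 1. The share found in both ran from 12.2% to 53.2% of a window's members, with a median of 35.4%. The share in neither stayed between 1.61% and 24.5%. Replicate 1 covered more than replicate 2 in 30 windows and less in 15. The widest excess of replicate 1 was 30.9 points from 6 to 6.5 Mb, where it covered 45.8% and replicate 2 14.9%. There 42 of 79 members (53.2%) lay over replicate 1 alone. From 18 to 18.5 Mb, 27 of 44 members (61.4%) lay over replicate 1 alone, with 38.6% covered in replicate 1 and 14.1% in replicate 2. From 13.5 to 14 Mb the order turned, and 25 of 35 members (71.4%) lay over replicate 2 alone.

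Members of 1 kind of support followed each other in runs. The longest run of replicate 1 alone held 15 neighbouring members from 6329556 to 6391659, a span of 62.1 kb that replicate 1 covered to 97.7% and replicate 2 to 6.67%. Of this span, 14724 bp lay in domains of 10 kb or more. The 15 members are not separate finds of replicate 1. A single domain of replicate 1 held the 6 members from 6346927 to 6371190, and the 5 from 6379787 to 6391659 met only 2 of its domains. The longest run of replicate 2 alone held 14 members from 13539472 to 13845212. It was spread over 306 kb, with no base in replicate 1 and 11.9% in replicate 2. The longest run found in both held 12 members from 11225380 to 11440039, a span with 92.5% covered in replicate 1 and 73.4% in replicate 2, and 136023 bp of it lay in domains of 10 kb or more. Members in neither replicate never formed a run of more than 4. The longest gap of replicate 1, 411 kb from 13495403 to 13906390, took in the run of replicate 2 alone and held 21 domains of replicate 2. The longest gap of replicate 2, 216 kb from 18396464 to 18612266, held or touched 3 domains of replicate 1.

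**Figure D4:**
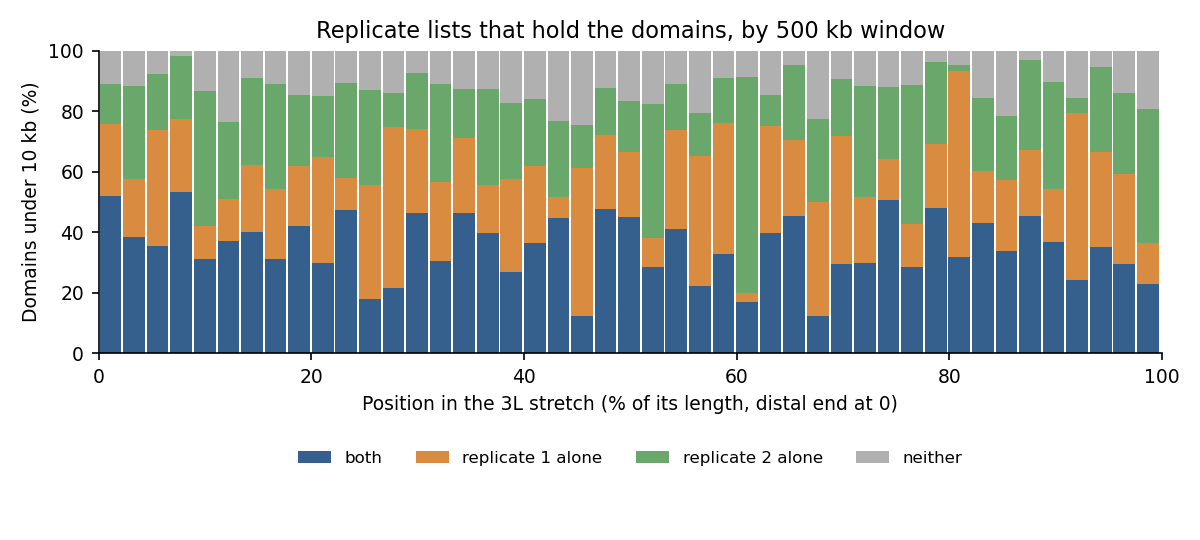
Share (percent) of the domains under 10 kb in each full window of 500 kb that overlap both replicates, replicate 1 alone, replicate 2 alone or neither, by position in the stretch as a percentage of its length. The window at 61.0% of the stretch has 71.4% of its domains over replicate 2 alone, and the one at 81.0% has 61.4% over replicate 1 alone.

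Spacing was uneven. The median gap between neighbouring members was 1627 bp, with quartiles of 482 and 5096 bp. Gaps of at most 1000 bp made up 987 of 2561 (38.5%), and 657 (25.7%) were at most 500 bp. In 4 places a member ended where the next began. At the other end, 369 gaps (14.4%) measured 10 kb or more, and 140 of these held a domain of 10 kb or more that is no member. Of the 51 member gaps of 50 kb or more, 13 held such a domain.

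**Figure D5:**
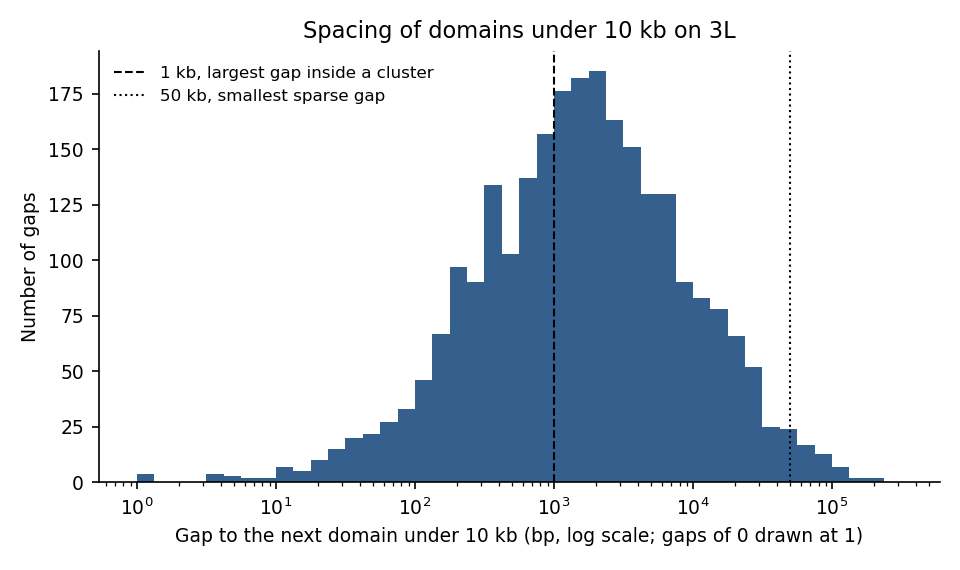
Number of gaps between neighbouring 3L domains under 10 kb by gap size in bp on a log axis, with gaps of 0 drawn at 1. The median is 1627 bp, 987 gaps lie at or under the dashed line at 1 kb, and 51 at or above the dotted line at 50 kb, of which 13 hold a longer domain.

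Clusters were counted as runs of 5 or more members with gaps of at most 1 kb. There were 50, with 290 members (11.3%), while 1020 members (39.8%) had more than 1 kb free of members on both sides. Members in clusters had a median length of 2597.5 bp, and those alone 1776.5 bp. Of the clustered members, 115 (39.7%) were found in both replicates, 116 (40.0%) in replicate 1 alone and 30 (10.3%) in replicate 2 alone. Such counts are not separate finds, since 177 domains of replicate 1 and 85 of replicate 2 spanned 2 or more members. The 6 members of the cluster from 6346927 to 6371190 met 1 domain of replicate 1. Of the members that stood alone, 286 (28.0%) were found in both, 240 (23.5%) in replicate 1 alone and 321 (31.5%) in replicate 2 alone. Of the 1252 members in runs of 2 to 4, 507 (40.5%) were found in both, 343 (27.4%) in replicate 1 alone and 276 (22.0%) in replicate 2 alone. Over all members these shares were 35.4%, 27.3% and 24.5%. The share found in both was thus no higher in clusters than in the shorter runs. Clusters lay along the whole arm, 12 in the first 5 Mb, 8, 14 and 11 in the next blocks of 5 Mb and 5 after 20 Mb. A median cluster spanned 18.1 kb.

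Most clusters were more covered in replicate 1. Replicate 1 covered more of the span than replicate 2 in 42 clusters and less in 8, with medians of 77.7% and 39.9%. There were 7 clusters without a domain of replicate 2 and 1 without a domain of replicate 1. The cluster with the most covered bases among those of 11 members ran from 7589023 to 7632126 and was covered to 84.9% in replicate 1 and 36.3% in replicate 2. The other cluster of 11 members, from 7084033 to 7112939, was covered to 72.9% and 30.4%. The cluster of 9 members from 18202120 to 18246440 spanned 44.3 kb, the longest span, with 98.1% in replicate 1 and 28.1% in replicate 2. Of the clusters of 8 members, one from 14265287 to 14299522 was covered to 93.8% and 33.3%. The other, from 12411110 to 12427890, was covered to 73.7% in replicate 1 and held no domain of replicate 2. In each of these 5 clusters replicate 2 covered under 40% of the span.

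Sparse stretches were counted as gaps of 50 kb or more between combined domains of any length. There were 40, from 50.2 to 212 kb, and together they took up 15.0% of the stretch. None began before position 1972645. In the first 5 Mb 6 began and after 20 Mb 2, while 11, 9 and 12 began in the blocks of 5 to 10, 10 to 15 and 15 to 20 Mb. The longest ran from 18399717 to 18612120. Replicate 1 had 76 bases of 1 domain in it and replicate 2 none. The second, 200 kb from 4931146 to 5131276, held no domain of replicate 1 and 2 of replicate 2, which covered 0.89% of it. Next in length, 176 kb from 13665776 to 13842130, one held none of replicate 1 and 2 of replicate 2. The fourth ran from 15331636 to 15489589 (158 kb) with 0 and 2, and the fifth from 15818809 to 15951477 (133 kb) with 2 and 3.

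The sparse stretches were close to empty in both replicates, which follows largely from how they were chosen. They hold no combined domain, while 95.9% of the replicate 1 list and 93.8% of the replicate 2 list overlap one. The low coverage is therefore no separate evidence that the replicates agree. Replicate 1 placed 20 domains in or across the edges of the 40, which covered 0.13% of their bases, and replicate 2 placed 62, which covered 1.60%. No domain of replicate 1 touched 22 of them, none of replicate 2 touched 8, and 1 was free of both. Each replicate list taken alone was sparser, with 62 such gaps in replicate 1 (26.3% of the stretch) and 50 in replicate 2 (18.4%). How much of these stretches reads can be mapped to is not known, so an empty stretch need not lack H3K9me1.

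The same choice of domains was made on 2L, 3R and X, each without the 2 Mb next to its centromere, and the values are set side by side without a test. The arm 2R was not included in this comparison. There were 114 members per Mb on 3L, 101 on 2L, 101 on 3R and 128 on X. They covered 31.5% of 3L, 27.2% of 2L, 27.2% of 3R and 36.1% of X. Median lengths were 2055.5, 1982, 1974 and 2036 bp in the same order, and median gaps 1627, 1794, 1661 and 1651 bp. The median score was 0.36 on 3L, 0.37 on 2L, 0.36 on 3R and 0.43 on X. The share found in both replicates was 35.4% on 3L, 34.0% on 2L, 32.9% on 3R and 34.6% on X. Replicate 1 alone and replicate 2 alone were near each other on 3L (27.3% and 24.5%), 2L (26.9% and 25.6%) and 3R (25.8% and 25.8%), and apart on X (11.5% and 42.5%).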

How the data were processed

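ChIP-seq of H3K9me1 was done on 2 ChIP replicates, with an input replicate for each. The tool given in the submitters' processing notes is Bowtie 0.12.7, which aligns short reads. The authors deposited 3 region lists, in which enriched regions have a positive score and depleted regions a negative one. The sources used here do not give the score's scale, the region caller, its thresholds, read depth or how the combined list was made. Coordinates are on FlyBase release 5, per the file headers. The gene table used is of release 6, so no gene is named, and no sequence is shown. A shallower library can lose weak domains or break up long ones.

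Overlaps (1 bp or more), coverage, gaps and clusters were computed in Python 3.11.15 with numpy 2.4.6, after a check on 100 simulated lists against a count base by base. Samples were grouped by their titles. Members, windows, cluster and gap limits were chosen with earlier results of these data known. Named are the 5 highest-scoring and 5 longest members, the 5 highest-scoring in neither replicate, the 5 largest clusters, the 5 longest sparse gaps, the 3 highest and 3 lowest windows by members, and the members at each limit; windows by replicate difference or by all lengths, runs of support, distal long domains, the longest gap of each replicate and the lowest score were added after their values were seen. A last window of 43557 bp was left out of ranks. No test was run, because no contrast between groups exists.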

Additional observations from a re-analysis of the deposited data

Results flagged for a closer look

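The combined list also marks 15 regions of the stretch as depleted of H3K9me1, of 49 in the whole list, while the stretch holds 2730 of the 13702 enriched domains. They are given because they enter no comparison above and number more than 3, a fixed limit that is no test, since the lists hold depleted regions by design. The number of such calls made by error is unknown, and whether 15 is many for 3L was not tested. The regions measure 1314 to 1696 bp, have scores from -0.09 to -0.01, and 13 of them lie after 10 Mb. None overlaps a combined domain, and 9 lie within 1000 bp of one. Of the 15, 5 overlap an enriched domain of replicate 1 alone, 6 one of replicate 2 alone, 3 overlap domains of both and 1 overlaps neither. The region from 10882684 to 10884231 has 1351 of its 1548 bp in a domain of replicate 1 and 1367 in one of replicate 2. The others that overlap both barely touch 1 of them. The region from 16567319 to 16568845 has 86 bp in replicate 2, and the one from 20177533 to 20179004 has 31 bp in replicate 1. The replicate lists mark 2 and 1 depleted regions in the stretch.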

How the results depend on the processing

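Of 34 alternative values for 9 results, 10 stayed within the SD of the replicates, the 95% interval of the share (Wilson, 33.6% to 37.3% for members found in both) or 1.5 times for a count, and 24 moved further. The Wilson interval treats members as independent, although neighbours can share a replicate domain. It measures no spread between samples and serves only as a yardstick. Dropping domains lowers coverage and joining them raises it by construction, and a mean of 2 replicates always lies within their SD of each. Member coverage (31.5%) was 21.4% under 5000 bp, 45.5% with any length and 21.3% at or above the median score. Replicate coverage (33.4%) was 24.7% at or above the median score and 24.3% under 10 kb, and ran from 30.3% to 36.5% over single replicates. The share found in both (35.4%) was 27.4% with 50% of the member covered by each, 20.8% with 50% shared both ways, 56.5% for members with the median score or more, 62.3% from 2000 bp and 39.2% with any length. Counted against 1 replicate, whatever the other showed, 59.9% overlapped replicate 2 and 62.7% replicate 1, a looser criterion. Distal coverage by members (25.2%) was 36.2% in the first 0.5 Mb, 33.8% in the first 2 Mb and 64.5% with any length, so its order against the rest of the stretch turns with the extent: members covered 31.4% of the rest beyond 0.5 Mb and 31.3% beyond 2 Mb. In the replicates it (56.0%) was 45.4% in the first 0.5 Mb and ran from 51.6% to 60.4% over single replicates. Clusters (50) numbered 14 at 500 bp, 120 at 2000 bp and 6 at or above the median score. Sparse gaps (40) numbered 86 from 25 kb, 8 from 100 kb and 50 to 62 in single replicates. Merging members within 1000 bp raised the median gap (1627 bp) to 3707.5 bp and the median length (2055.5 bp) to 2879 bp. Other causes were not tested. No paired analysis was possible because no result comes from a test and inputs enter only through the authors' calls. Depth is not given, so a domain missing from a list cannot be called absent.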

Other observations

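Domains of the replicates that have no counterpart in the combined list were few. Of the 1750 domains of replicate 1 in the stretch, 1678 (95.9%) overlapped a combined domain and 72 did not. Of the 2275 of replicate 2, 2134 (93.8%) did and 141 did not. Those without a counterpart were short, with a median of 1459 bp in replicate 1 and 1511 bp in replicate 2, against 2585.5 and 2209 bp for the others of each list. A domain of replicate 1 spanned up to 9 members, and 177 spanned 2 or more. Of the domains of replicate 2, 85 did, and none spanned more than 3. Conversely, 99 members held or touched 2 or more domains of replicate 1, and 169 members 2 or more of replicate 2.

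Edges were compared for 544 members that met exactly 1 domain in each replicate, which in turn met no other combined domain. Starts of the replicate domains differed by a median of 342.5 bp and ends by 354.5 bp, with upper quartiles of 1111 and 1058 bp. The domain of replicate 1 was the longer one for 314 members (57.7%), with median lengths of 2351 bp in replicate 1 and 2166 bp in replicate 2. The combined domain was longer than both for 337 members (61.9%) and shorter than both for 5.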
